A study of Mus musculus with 6 samples.

Results

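The Hes and Hey genes encode a family of basic helix-loop-helix (bHLH) repressors, and their transcript levels were examined in R1 mouse embryonic stem cells differentiated with retinoic acid. The 9 members Hes1, Hes2, Hes3, Hes5, Hes6, Hes7, Hey1, Hey2 and Heyl were chosen by gene symbol from a table of 24002 genes, and all 9 were found in it. R1, a mouse embryonic stem cell line, was kept in medium with 15% serum replacement and LIF at 1000 U/ml. Embryoid bodies formed in hanging drops over 48 h were then given retinoic acid, with sampling at day 6. The labels give the dose as 0.5 mM, a unit that is uncertain because micromolar doses are usual. Polyadenylated RNA was sequenced in 3 samples of this condition, and 3 further samples were used for ATAC-seq, whose regions are not analysed here. No other condition was available for comparison, so the values are levels at day 6 and not changes.

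Hes and Hey proteins bind DNA as dimers and recruit Groucho (Tle) corepressors, or further corepressors in the case of Hey proteins, to silence their targets. Many members are switched on when a Notch receptor is cleaved and its intracellular part joins the DNA-binding protein Rbpj, also called CSL, at their promoters. In the developing spinal cord Hes1 and Hes5 hold cells in the progenitor state by repressing proneural bHLH genes such as Neurog2, while differentiating neurons present the ligand Dll1 to their neighbours.

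Levels were read as FPKM, a scale that divides the fragments of a gene by its transcript length and by library size, so genes can be compared per length. FPKM summed to 494246, 477760 and 524717 in replicates 1, 2 and 3. Read totals are unknown. Judged by the steps among low values, replicate 1 was sequenced 1.56 times as deeply as replicate 2 and 1.17 times as deeply as replicate 3. Nothing in the labels ties replicates to separate cultures, and their spread may thus be technical. The labelled cell type, embryonic stem cell, describes the starting cells: of 5 pluripotency markers only Zfp42 reached 1 FPKM in every replicate (2.14 ± 0.542 FPKM; SD, n = 3), while Pou5f1 stood at 0.815 ± 0.0792, Klf2 at 0.665 ± 0.124, Tdgf1 at 0.101 ± 0.0290 and Nanog at 0.0879 ± 0.0318. All 10 neural progenitor markers and all 12 neuron markers reached it.

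A gene is called expressed here if none of its 3 values was below 1 FPKM, and 5 of the 9 members were: Hes6, Hes5, Hes1, Hey1 and Hey2. Over all genes tested 50.7% met that rule, so the share of members lay near the background. At 0.5 FPKM 6 members passed against 54.4% of all genes, and at 5 FPKM 4 members passed against 35.7%. The median of the members' means was 2.86 FPKM, against 1.31 over all genes. Their levels ran from 41.6 FPKM for Hes6 down to 0.0309 for Hes3. Summed over the family, FPKM came to 99.6, 104 and 101 in replicates 1, 2 and 3. Hes6, Hes5, Hes1 and Hey1 together made up 96.0% ± 0.204 of that sum (SD, n = 3). Hes6 alone made up 41.0% ± 0.709 and Hes5 23.6% ± 0.280. The 6 Hes genes summed to 83.5 ± 2.53 FPKM and the 3 Hey genes to 18.0 ± 0.658. RNA came from mixed cells, in which fewer cells of a type and less RNA per cell cannot be told apart.

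**Figure D1:**
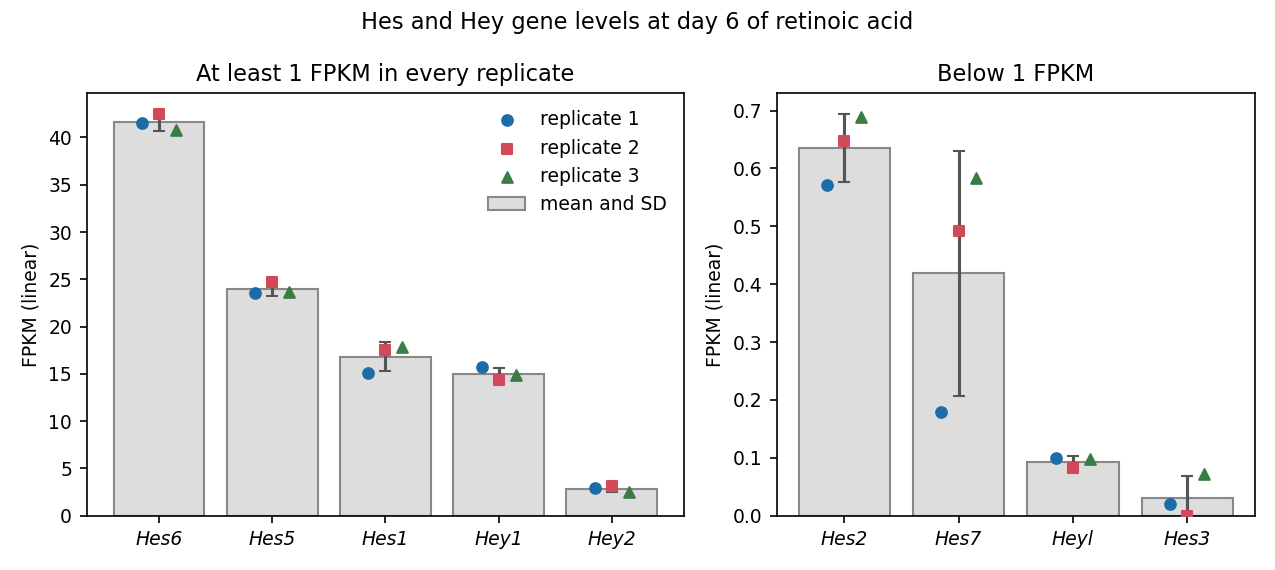
FPKM of each Hes and Hey gene on linear axes, with expressed members at left and members below 1 FPKM at right. Points are the 3 replicates, bars the mean and error bars the SD (the bar of Hes3 would reach below 0 and is clipped). Hes6 stands highest at 41.6 FPKM, and Hes1, Hes2, Hes5 and Hes7 have their lowest point in replicate 1.

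The sequence upstream of the start site is shown for the only 4 members that the RefSeq promoter table (build GRCm38.p6) holds. Their levels run from Hes6, the highest member, to Hes7, below 1 FPKM. Heyl and Hes3, which were lower still, have no entry. The core of the CSL site, TGGGAA, is in capitals, and appears as TTCCCA where it lies on the opposite strand. Each line gives the 250 bases before a start site, 5′ to 3′ on the gene's strand. Hes5 (chr4:154960673-154960922, plus strand), Hes7 (chr11:69120203-69120452, plus strand) and Hey2 (chr10:30842784-30843033, minus strand) have 1 entry each. Hes6 has start sites 1 (chr1:91414039-91414288) and 2 (chr1:91413223-91413472), both on the minus strand.
Hes5: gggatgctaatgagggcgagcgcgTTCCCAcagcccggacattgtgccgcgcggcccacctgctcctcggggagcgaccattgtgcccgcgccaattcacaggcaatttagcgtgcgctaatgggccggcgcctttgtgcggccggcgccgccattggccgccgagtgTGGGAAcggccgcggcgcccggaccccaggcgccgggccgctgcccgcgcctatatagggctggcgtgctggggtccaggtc
Hes7: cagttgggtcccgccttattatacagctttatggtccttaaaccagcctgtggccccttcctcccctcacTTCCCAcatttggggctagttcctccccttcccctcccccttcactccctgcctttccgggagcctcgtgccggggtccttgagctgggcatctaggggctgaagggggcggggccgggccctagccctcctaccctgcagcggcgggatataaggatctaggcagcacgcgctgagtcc
Hey2: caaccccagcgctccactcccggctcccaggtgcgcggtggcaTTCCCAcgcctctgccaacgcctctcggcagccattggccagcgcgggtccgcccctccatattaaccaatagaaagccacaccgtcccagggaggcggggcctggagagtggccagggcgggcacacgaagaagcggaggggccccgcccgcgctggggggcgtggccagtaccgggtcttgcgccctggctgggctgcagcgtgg
Hes6 start site 1: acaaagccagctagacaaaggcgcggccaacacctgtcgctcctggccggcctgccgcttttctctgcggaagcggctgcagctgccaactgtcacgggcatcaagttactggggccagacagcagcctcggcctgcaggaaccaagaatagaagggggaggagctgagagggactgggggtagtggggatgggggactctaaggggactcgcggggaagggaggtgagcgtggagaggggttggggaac
Hes6 start site 2: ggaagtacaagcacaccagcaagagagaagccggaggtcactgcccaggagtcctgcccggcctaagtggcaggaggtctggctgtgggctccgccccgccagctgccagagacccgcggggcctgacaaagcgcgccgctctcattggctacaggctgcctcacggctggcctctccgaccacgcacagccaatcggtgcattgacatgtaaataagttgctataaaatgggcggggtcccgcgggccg

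Matches were counted on both strands in the whole window of 300 bases, which runs 50 bases past the start. Hes5 held 2 cores, from -226 to -221 and from -82 to -77 relative to the start site, and Hes7 held 1, from -180 to -175. Hey2 held 1 from -207 to -202 and another that crosses the start site, so it is not in capitals above. Neither Hes6 window held one. Among all 32851 windows of this length, 25.6% held the core and 3.79% held 2 or more. The longer form GTGGGAA, which contains that core and was added after the data were seen, was present at each of these 5 matches and in 6.38% of all windows. The E box CACGTG was in none of the 5 windows and in 7.15% of all. The N box CACNAG, a site bound by Hes proteins, was found 2 times at Hes6 start site 2 and 1 time at Hes7, against 42.5% of all windows with at least 1. A match is a string of letters and shows no binding. Of these 4 members, Hes5 at 24.0 FPKM, Hey2 at 2.86 and Hes7 at 0.419 had the core, and Hes6 at 41.6 did not. Hes1 and Hey1 had no window, and a link between the core and the level was not tested.

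Hes1 and Hes5, the main Notch effectors of neural progenitors, were both expressed, Hes5 at the higher level. Hes5 stood at 23.5, 24.8 and 23.6 FPKM in replicates 1, 2 and 3 (24.0 ± 0.688; SD, n = 3). Hes1 stood at 15.0, 17.5 and 17.9 FPKM (16.8 ± 1.54). The ranges did not overlap. Hes5 was thus 1.56, 1.41 and 1.32 times Hes1 within the libraries, a mean difference of 0.49 ± 0.11 in log2(FPKM + 1). The gap was widest in replicate 1, where Hes1 was lowest. Hes5 exceeded 88.6% of all genes in mean level and Hes1 83.6%.

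Hes3, a further repressor of early neural progenitors and of the midbrain-hindbrain boundary, was listed at 0.0205, 0 and 0.0723 FPKM. After division by relative depth, the value of replicate 3 corresponded to 3.00 times the reads of replicate 1, so these values rest on very few reads. In the RefSeq table Hes3 overlaps Gpr153 (7.55 ± 0.381 FPKM; SD, n = 3), and use of strand in counting is not given.

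Hes6 was the highest member. It does not need Notch for its expression, counters Hes1 and favours neuronal differentiation. Its levels were 41.5, 42.5 and 40.7 FPKM (41.6 ± 0.892; SD, n = 3), above 94.0% of all genes. Within libraries Hes6 was 1.77, 1.72 and 1.73 times Hes5, or 0.77 ± 0.02 in log2(FPKM + 1). Against Hes1 it was 2.76, 2.43 and 2.28 times as high (1.26 ± 0.13 in log2). The ratio to Hes5 held within a narrow band, whereas that to Hes1 was largest in replicate 1.

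Hes7 and Hes2 were below 1 FPKM in every replicate. Hes7, the oscillating repressor of the segmentation clock in presomitic mesoderm, stood at 0.180, 0.492 and 0.584 FPKM (0.419 ± 0.212; SD, n = 3). It was lowest in replicate 1, the deepest library, and its estimated read number was 1.75 times as large in replicate 2 and 2.76 times as large in replicate 3. Of 12 genes of presomitic mesoderm and the segmentation clock 4 were expressed, with a list median of 0.423 FPKM against 1.31 over all genes. Those were Dll3 (11.7 ± 0.786), Lfng (9.83 ± 0.231), Axin2 (5.91 ± 0.370) and Nkd1 (1.98 ± 0.0814), all of which also act outside somites. T and Msgn1, which define the primitive streak and presomitic mesoderm and are named here after their values were seen, were listed at 0 in every replicate, and Tbx6 stood at 0.327 ± 0.0368. Hes2, a less studied repressor, stood at 0.572, 0.647 and 0.688 FPKM (0.636 ± 0.0589) and was the member that joined at 0.5 FPKM.

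Among the Hey genes, known above all from heart and vessel development, Hey1 was expressed well above Hey2, and Heyl was near 0. Hey1, also found in neural progenitors, stood at 15.7, 14.4 and 14.9 FPKM (15.0 ± 0.658; SD, n = 3). Hey2 stood at 2.92, 3.13 and 2.52 FPKM (2.86 ± 0.307), and Hey1 was 5.38, 4.60 and 5.92 times as high within libraries. Heyl stood at 0.0988, 0.0829 and 0.0981 FPKM (0.0933 ± 0.00898). The 3 levels did not overlap. Of 9 endothelial markers only Flt1 was expressed (4.71 ± 1.08), and the list sum ran from 5.04 FPKM in replicate 1 to 7.22 in replicate 3. Pecam1 and Cdh5, named after their values were seen, stood at 0.0700 ± 0.0423 and 0.460 ± 0.163. Of 7 cardiac and 6 mural or smooth muscle markers none was expressed, with list sums from 2.26 to 3.14 and from 2.14 to 2.86 FPKM. The part of such cells in the levels of Hey genes was not tested.

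In order of mean level the members ran Hes6, Hes5, Hes1, Hey1, Hey2, Hes2, Hes7, Heyl and Hes3. Of the 8 neighbouring pairs in that order, 6 had ranges over the replicates that did not overlap. The exceptions were Hes1 with Hey1 and Hes2 with Hes7. In replicate 1 Hey1 was 1.04 times Hes1, and in replicates 2 and 3 it was 0.821 and 0.836 times Hes1. Without replicate 1 all 8 pairs were separate. No test between members was made, and the pairs are described by their values: over 3 paired libraries the smallest p of an exact permutation test, two-sided, is 0.25.

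The spread between replicates differed among members, also when each was set beside genes of its own level. The SD of log2(FPKM + 1) was 0.03 for Hes6, 0.04 for Hes5, 0.06 for Hey1, 0.12 for Hey2 and 0.13 for Hes1. Among the 200 genes nearest to each in level, these lay at percentiles 30.0, 38.0, 53.5, 73.0 and 93.0. Hes1 thus varied more than most genes of its level, and Hes5 and Hes6 less than the median gene of theirs. Of the members below 1 FPKM, Hes7 (0.22) lay at percentile 93.5, Hes3 at 70.5, Hes2 at 19.0 and Heyl at 3.50. For the lowest members the pseudocount of 1 compresses the spread.

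**Figure D2:**
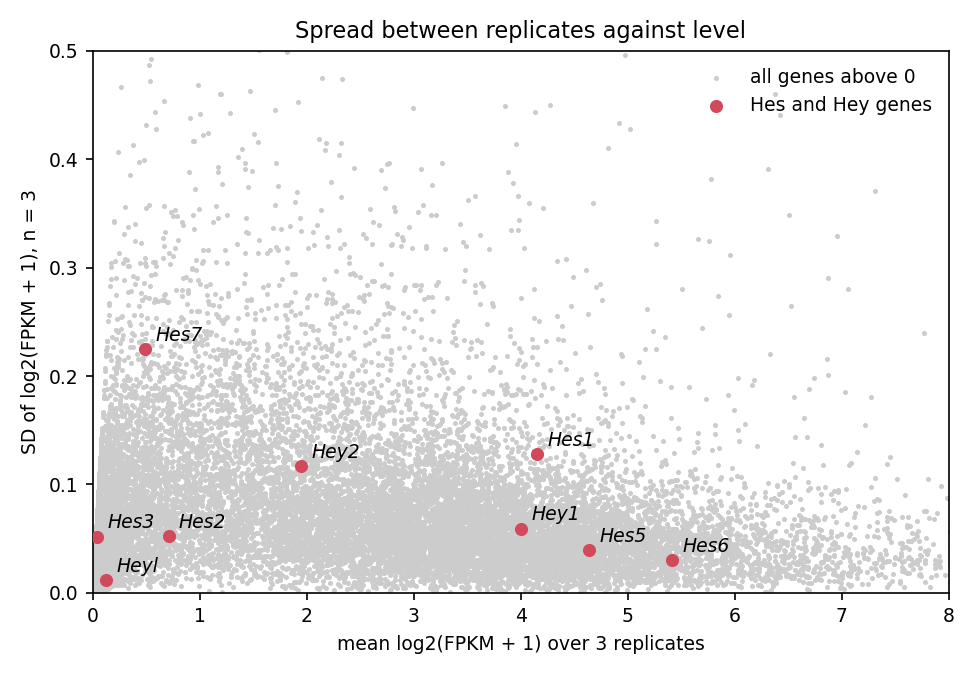
SD of log2(FPKM + 1) over 3 replicates against its mean for all genes above 0 (grey, within the axis limits) and for the Hes and Hey genes (red). Hes1 (0.13) and Hes7 (0.22) stand high for their level, and Hes5 (0.04) and Hes6 (0.03) lie in the bulk.

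Hes1 was lowest in replicate 1, where markers of extraembryonic endoderm and the sums of several other marker lists were also lowest. Its deviation from its own mean in log2(FPKM + 1) was -0.15, 0.06 and 0.09 in replicates 1, 2 and 3. Those of Hes5 were -0.03, 0.05 and -0.02. Those of Hey1 were 0.06, -0.06 and -0.01, in the opposite direction to Hes1 in replicate 1. Of the 5 members whose mean reached 1 FPKM, 2 (Hes1 and Hes5) had their lowest value in replicate 1, and 36.5% of all genes of that level did. Hey1 had its highest value in replicate 1, as did 36.3% of all such genes. Without replicate 3, 4 of the 5 were lower in replicate 1 than in replicate 2, as were 50.7% of all genes of that level. Hes5 fell under the rule by a margin of 23.5 against 23.6 FPKM, whereas Hes1 was lower by over 2 FPKM. Among members below 1 FPKM, Hes2 and Hes7 were also lowest in replicate 1, which makes 4 of all 9, against 26.4% of all genes with no minimum level.

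Of 20 extraembryonic endoderm markers, all expressed, 19 had their lowest value in replicate 1. Their summed level was 609, 829 and 838 FPKM, and their median deviations were -0.27, 0.13 and 0.13. Gata4, an endoderm factor named after its values were seen, stood at 10.5, 15.6 and 16.7 FPKM, and the basement membrane gene Sparc at 228, 287 and 293. Neural progenitor markers had median deviations of 0.03, -0.01 and -0.03 with sums of 1513, 1479 and 1467 FPKM, and neuron markers 0.05, -0.03 and -0.03 with sums of 3074, 2953 and 2931. Glial markers (6 of 8 expressed) had -0.03, 0.05 and -0.02 with sums from 105 to 112 FPKM, and floor plate markers (4 of 5) -0.03, 0.00 and 0.03 with sums from 45.0 to 45.6. That floor plate median hides opposite directions. In replicate 1 Ntn1 (0.09) and Shh (0.07) lay above their own means, and Foxa2 (-0.37) and Foxj1 (-0.14) below. Foxa2 is also among the endoderm markers, and Ntn1 (31.2 ± 1.85 FPKM; SD, n = 3) made up most of the floor plate sum. The part of endoderm cells in the replicate pattern of Hes1, Hes2 or Hes7 was not tested.

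**Figure D3:**
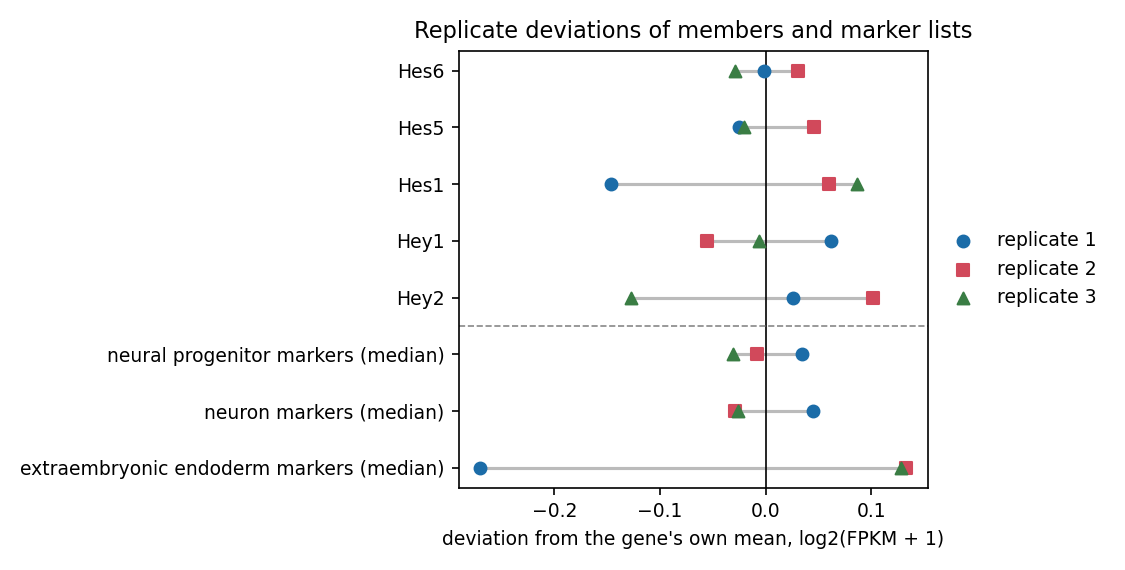
Deviation of each expressed Hes and Hey gene from its own mean in log2(FPKM + 1), by replicate, above the dashed line, and the median deviation of 3 marker lists below it. In replicate 1 Hes1 (-0.15) and the endoderm list (-0.27) lie to the left, and Hey1 (0.06) and the neural lists lie to the right.

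Upstream of the Hes and Hey genes, most of the listed Notch pathway genes were expressed. Over all genes tested 50.7% were, and each list count here and below is to be read beside that share. Among expressed genes alone, the median over all pathway lists was 12.29 FPKM, against 10.01 over all genes. All 7 ligand genes passed 1 FPKM in every replicate, with a median of 8.78 FPKM. They were Dlk1 (23.1 ± 0.516 FPKM; SD, n = 3) and Dlk2 (8.78 ± 0.303), which encode atypical ligands, and the Dll and Jag genes. Of the latter, Dll1 stood at 12.9 ± 0.466, Dll3 at 11.7 ± 0.786, Jag2 at 6.84 ± 0.155, Jag1 at 2.58 ± 0.214 and Dll4 at 1.66 ± 0.126. Of the receptors, Notch1 (14.6 ± 0.889) was the highest, followed by Notch3 (5.71 ± 0.348) and Notch2 (3.34 ± 0.195), while Notch4, known from vessels, was below 1 FPKM (0.702 ± 0.0357). Hes5 thus stood above each receptor gene and each Dll or Jag gene in every replicate.

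All 20 genes of receptor processing and ligand uptake were expressed. Psenen, a gamma-secretase subunit gene, was the highest of them at 64.9 ± 3.08 FPKM (SD, n = 3). The sheddase gene Adam10 stood at 36.9 ± 1.56, the gamma-secretase subunit gene Aph1a at 30.2 ± 0.374 and Numbl, related to the Notch inhibitor Numb, at 28.4 ± 0.868. In the nucleus, 12 of 13 genes were expressed, led by Snw1 (28.5 ± 1.03), Hdac1 (22.2 ± 0.454), the corepressor gene Ncor1 (21.8 ± 0.533) and Rbpj (21.1 ± 0.392). The exception was Rbpjl, a relative of Rbpj named after its values were seen, listed at 0, 0.0229 and 0.

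In a further list, of genes named for Notch response or feedback, 7 of 7 were expressed. Whether Notch drives each of them in these cells was not tested. Nrarp, a feedback inhibitor and Notch target, stood at 18.6 ± 0.995 FPKM (SD, n = 3), and the Deltex gene Dtx1 at 23.8 ± 0.781, close to Hes5. Dtx3 (78.6 ± 5.49), Dtx4 (31.1 ± 0.925), Dtx2 (9.38 ± 0.105), Ccnd1 (7.57 ± 0.273) and Fabp7 (910 ± 8.47) completed this list, in which Fabp7 also marks radial glia. Of the Groucho genes that encode corepressors of Hes proteins, 5 of 6 were expressed. Aes, a short family member that can oppose the others, was the highest at 128 ± 1.69, followed by Tle3 (49.7 ± 1.27), Tle4 (13.4 ± 0.455), Tle1 (11.3 ± 0.456) and Tle2 (3.00 ± 0.394), with Tle6 at 0.299 ± 0.0582.

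Downstream, genes that include targets of Hes proteins, such as Neurog2, were expressed beside Hes1 and Hes5 in the same RNA. Repression was not tested. Of 12 proneural and neuronal bHLH genes 8 were expressed, with a median of 4.97 FPKM. Among the highest were Nhlh2 (19.0 ± 0.556; SD, n = 3), Neurog2 (18.1 ± 0.942) and Nhlh1 (11.6 ± 0.164). The 4 not expressed, named after their values were seen, were Neurod6 (0.714 ± 0.164), Neurog3 (0.443 ± 0.154), Ptf1a (0.0257, 0 and 0) and Atoh1, listed at 0 in every replicate. The 3 cyclin-dependent kinase inhibitor genes that were listed, which include targets of Hes1, were all high. Cdkn1c stood at 97.7, 100.1 and 97.3 FPKM in the replicates, Cdkn1b at 54.3 ± 1.68 and Cdkn1a at 40.9 ± 0.956. Other genes of this kind were not looked at.

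Partners and relatives of the family were also present. Of Id and E protein genes, whose products respectively block and form bHLH dimers, 7 of 7 were expressed. They were Id4 (58.9 ± 1.28 FPKM; SD, n = 3), Id2 (38.2 ± 1.27), Id3 (24.7 ± 2.15), Id1 (10.3 ± 0.702), Tcf3 (21.1 ± 0.385), Tcf12 (20.2 ± 0.980) and Tcf4 (15.2 ± 0.164). Of the related bHLH-Orange genes, Bhlhe40 stood at 19.7 ± 1.32 and Bhlhe41 at 2.12 ± 0.116, while Helt, a gene of midbrain GABAergic neurons, was listed at 0 in every replicate. Over the 11 lists of these pathways, 76 of 92 distinct genes were expressed, against 50.7% of all genes tested. The median was 10.3 FPKM over all 92 against 1.31 over all genes, and among expressed genes alone it was 12.29 against 10.01 FPKM. These lists were chosen with earlier results known, so the counts are a description.

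**Figure D4:**
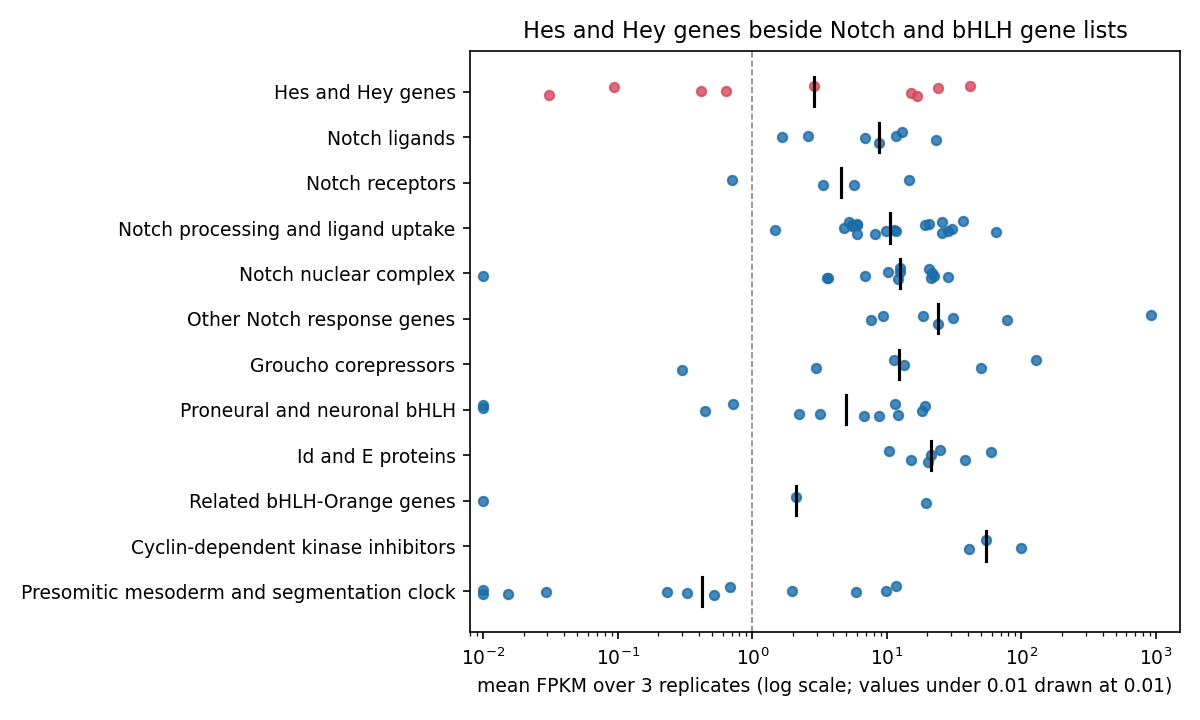
Mean FPKM over 3 replicates on a log axis for the Hes and Hey genes (red) and the genes of 11 pathway lists (blue). Black bars mark list medians, the dashed line 1 FPKM, and values under 0.01 are drawn at 0.01; the Hes and Hey genes divide into 5 at or above 2.86 FPKM and 4 at or below 0.636.

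For each member, the gene most like it was sought among 172 genes of the pathway and marker lists, by Euclidean distance in log2(FPKM + 1) over the 3 replicates, a measure that mostly reflects level. It was Sox3 (41.9 ± 0.505 FPKM; SD, n = 3) for Hes6 at a distance of 0.03, Dtx1 for Hes5 at 0.09, Tcf4 for Hey1 at 0.09, Neurod4 (3.17 ± 0.101) for Hey2 at 0.23 and Neurog2 for Hes1 at 0.30. The distance for Hes1 was the largest of the 9. Among members below 1 FPKM, it was Pdgfrb (0.571 ± 0.0455) for Hes2, Cdh5 for Hes7, Tnnt2 (0.0732 ± 0.0148) for Heyl and Ripply1 (0, 0 and 0.0877) for Hes3.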

How the data were processed

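RNA-seq of polyadenylated RNA was analysed in 3 samples, grouped and numbered by their titles. The deposited table names no unit; its values were read as FPKM because the submitters' processing notes name Cufflinks, with Bowtie and the build mm9. For versions, settings, use of strand and any scaling between libraries by the authors, the sources used here give nothing. A 0 can be a failed estimate. Means, SDs and ranks were computed with Python 3.11.15, pandas 2.3.3 and numpy 2.4.6. Relative depth was the most common ratio of values between 0.001 and 0.1 FPKM, within 0.004 on the natural log scale. On simulated data for 24002 genes, only the relative depth and the spread percentile were tested. The latter was tested with an added spread far above that of most genes here. The ATAC-seq regions are in mm9, for which no annotation was used here. RefSeq (GRCm38.p6) served for names, neighbours and promoter windows, found for 4 of the 9 members. The members and lists were chosen with earlier results of these data known. Named were the members, the 4 highest genes of each list, all genes of lists of up to 7, the nearest listed gene of each member and its protein-coding neighbours, though not every such value is reported here. As alternatives, thresholds of 0.5 and 5 FPKM, a pseudocount of 0.1, upper quartile scaling, no filter on low values, 500 genes of like level and each replicate left out were tried.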

Additional observations from a re-analysis of the deposited data

How the results depend on the processing

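At a threshold of 0.5 FPKM Hes2 joined the expressed members, and at 5 FPKM Hey2 left them. Against genes above 0 in a replicate, 66.0% of genes were expressed in place of 50.7%. With a pseudocount of 0.1 the log2 ratio of Hes6 to Hes5 moved from 0.77 to 0.79, and it ranged from 0.76 to 0.78 with a replicate left out. The number of members lower in replicate 1 than in the others rose from 2 to 4 with no minimum level, by Hes2 and Hes7, and was between 2 and 4 with replicate 2 or 3 left out; without replicate 1 it has no value. The deviation in replicate 1 changed sign for Hes6 under upper quartile scaling (0.0104), and lay between -0.0164 and 0.0138 for Hes6, -0.0357 and 0.0146 for Hes3 and -0.0379 and 0.0765 for Hey2 with a replicate left out. Hes1 kept its negative deviation under every alternative run, but none of them could have changed its sign. Its value in replicate 1 is below both others, whichever replicate is left out and whichever pseudocount is used. The factors of upper quartile scaling, from 0.985 to 1.01, were too close to 1 to close that gap. Of 186 values recomputed, 172 stayed within the spread or within 1.5 times the count. For mean levels and log2 ratios with a replicate left out, this was fixed in advance. Leaving out 1 of 3 values cannot move their mean by a whole SD. A pseudocount also cannot change which replicate is lowest. The 172 are therefore no measure of robustness. No paired analysis was possible because the RNA-seq and ATAC-seq samples share only replicate numbers and are not compared. The alternatives for accessible regions were not run. Unknown depth limits Hes3, Heyl and Hes7.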

Other observations

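Of the genes beside the members in the RefSeq table, some were close to them in level and others far above or below. Hes6, the highest member, lies on chromosome 1 between Ilkap (21.1 ± 0.719 FPKM; SD, n = 3) and the clock gene Per2 (1.49 ± 0.178). Hes7, on chromosome 11, lies next to Per1, another clock gene, at 7.18 ± 0.376, and on its other side next to Aloxe3 (0.247 ± 0.0659). Hes2 and Hes3, both on chromosome 4, flank Acot7, which stood at 106 ± 2.64, far above either. On their outer sides lie Espn (0.979 ± 0.306), beside Hes2, and Icmt (9.92 ± 0.312), beside Hes3. Hes5, on the same chromosome, lies between Tnfrsf14 (0.189 ± 0.108) and Pank4 (7.14 ± 0.605). Hey1, on chromosome 3, lies between the neuronal gene Stmn2 (420 ± 15.8) and Mrps28 (32.9 ± 3.25), and overlaps a predicted gene that was not matched in the table. Hes1, on chromosome 16, lies between Opa1 (14.9 ± 0.463) and Cpn2, listed at 0, 0 and 0.0176. Heyl lies between Nt5c1a, listed at 0, 0.0588 and 0, and Pabpc4 (18.7 ± 0.671), and Hey2, on chromosome 10, between Ncoa7 (4.52 ± 0.457) and Hddc2 (17.5 ± 1.38).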
